A study of Mus musculus with 25 samples.

Results

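The fatty acid elongases Elovl1, Elovl3, Elovl5, Elovl6 and Elovl7, the stearoyl-CoA desaturases Scd1 and Scd2, and the fatty acid desaturases Fads1, Fads2 and Fads3 were followed in perigonadal white adipose tissue (pgWAT) of refed male mice. The 10 genes were taken by the gene name that the array design gives to each probe. All 10 were measured, out of 26394 genes with a probe in the deposited table of normalized values. Total RNA of each mouse was hybridized to a 1-colour Agilent mouse expression array. The study asked what the β isoform of the carbohydrate-responsive transcription factor ChREBP, encoded by Mlxipl, contributes beside the α isoform. ChREBPβ-deficient mice (ChREBPbeta_KO, 6 arrays) lack the exon from which the β transcript starts. It was removed by CRISPR/Cas9 in embryos, and the α isoform is left in place. They were compared with WT littermates (ChREBPbeta_WT, 7 arrays). Total ChREBP-KO mice (ChREBPtotal_KO, 5 arrays), which lack both isoforms, were compared with WT mice of their own line (ChREBPtotal_WT, 7 arrays). Both deletions are carried by the whole animal, so adipose tissue was not the only one affected. All 25 mice were C57BL6/J males on regular diet that had been fasted and then refed with food and glucose-supplemented water. The labels give no age. The lines were bred apart, so line and any difference in breeding cannot be told apart.

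Long-chain fatty acids are built in steps. Fatty acid synthase releases palmitate, and elongases of the endoplasmic reticulum then add carbon units to the acyl-CoA, each enzyme preferring certain chain lengths and degrees of saturation. Desaturases insert unsaturated bonds: the Scd enzymes turn palmitate and stearate into the monounsaturated palmitoleate and oleate that fill adipose triglycerides, and the Fads enzymes act on polyunsaturated chains on the way to arachidonic and docosahexaenoic acid. In fed adipose tissue, ChREBP and SREBP-1c are known regulators of the lipogenic genes that feed this pathway.

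Promoter sequences are shown for the members that differed in total ChREBP-KO mice or that hold a copy of CACGTG, the E-box core that basic helix-loop-helix factors including ChREBP recognise. The RefSeq table used here (mouse GRCm38.p6) held 7 promoters for 6 of the 10 members. It gave no promoter for Elovl3, Scd1, Scd2 and Fads1. The 250 bases before the start of Elovl6 (chr3:129532136-129532385, plus strand), Elovl5 (chr9:77917115-77917364, plus strand) and the upstream start of Elovl1 (chr4:118427843-118428092, plus strand) read as follows, 5′ to 3′, with matches to the searched motifs in capitals.
Elovl6: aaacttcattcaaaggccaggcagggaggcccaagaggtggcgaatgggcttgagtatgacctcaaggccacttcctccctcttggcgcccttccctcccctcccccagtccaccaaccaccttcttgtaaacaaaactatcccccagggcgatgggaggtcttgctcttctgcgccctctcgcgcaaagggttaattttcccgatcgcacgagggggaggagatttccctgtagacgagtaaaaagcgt
Elovl5: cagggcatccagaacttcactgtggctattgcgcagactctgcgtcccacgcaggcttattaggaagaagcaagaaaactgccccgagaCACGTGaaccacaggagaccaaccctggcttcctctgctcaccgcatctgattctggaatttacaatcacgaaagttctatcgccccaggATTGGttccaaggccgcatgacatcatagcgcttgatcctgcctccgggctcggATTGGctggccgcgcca
Elovl1: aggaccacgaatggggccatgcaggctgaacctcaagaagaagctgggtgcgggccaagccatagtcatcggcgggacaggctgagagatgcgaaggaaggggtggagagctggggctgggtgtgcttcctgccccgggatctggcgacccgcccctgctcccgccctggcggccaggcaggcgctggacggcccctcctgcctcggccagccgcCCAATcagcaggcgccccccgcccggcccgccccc
The motifs were searched on both strands, with N for any base. CACGTG stood in 6.02% of the 32851 promoters of the table, and among the members only in Elovl5, 161 bases before the start. A pair of such boxes at the spacing of a perfect carbohydrate response element, CACGTG followed by NNNNN and a second CACGTG, which holds the single box too, stood in 0 of the 32851 windows. TCACCCCAC, a sterol regulatory element, stood in 0.496% of windows and AGGTCA followed by NNNN and a second AGGTCA, a repeat of the kind liver X receptors bind, in 0.0152%, and neither in a member. CCAAT, the core of the NF-Y box, stood in 33.8% of windows, in Elovl5 at 71 and 17 bases before the start, in Elovl1 at 35, and in Fads3 at 106 and 78. The Elovl6 window held none of the 5 motifs. These matches are descriptions of letters in a window of 250 bases and show no binding.

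The members were covered by 22 probes, of which 21 were in the table. The missing one, a further Elovl1 probe, had raw intensities of 15 to 27 against local backgrounds of 14 to 22 and was well above background on 0 of 25 arrays. Of the 21 probes, 20 were well above background on every array and 0 shared a run of 20 bases with another gene. A gene is given here by its brightest probe, as log2 of the quantile-normalized intensity. Levels of different genes cannot be set against each other on this scale, because probes differ in how strongly they bind. On mm9, the build of the array design, the brightest probes lie on chromosome 4 for Elovl1 (118105163 to 118105222), chromosome 19 for Elovl3 (46209325 to 46209384), chromosome 9 for Elovl5 (77832205 to 77832264), chromosome 3 for Elovl6 (129337756 to 129337815) and chromosome 13 for Elovl7 (109073556 to 109073615). Those of the desaturases all lie on chromosome 19, at 44469387 to 44469446 for Scd1, 44381024 to 44381083 for Scd2, 10270530 to 10270589 for Fads1, 10138750 to 10139180 for Fads2, split over that span, and 10132641 to 10132700 for Fads3. No annotation of mm9 was used here, so exon and UTR positions are not given.

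Raw median intensities of the 25 arrays were 84 to 127, local backgrounds were 15 to 22, and the share of spots well above background was 73.0% to 77.9%. Arrays of the same group correlated at 0.970 to 0.997. All 10 adipocyte markers were measured, and their summed level was 20.72 to 21.01 in ChREBPβ WT, 20.82 to 20.96 in ChREBPβ-KO, 20.79 to 20.92 in total ChREBP WT and 21.07 to 21.10 in total ChREBP-KO mice. The total ChREBP-KO sums thus lay above those of all other arrays. Of the 10 markers 3 were called higher there, where 5.61% of all genes were called higher. The Mlxipl probe read 14.72 to 15.47 in ChREBPβ WT, 14.02 to 14.64 in ChREBPβ-KO, 15.74 to 16.24 in total ChREBP WT and 14.07 to 14.29 in total ChREBP-KO mice. Each KO group thus lay below its own WT group without overlap. Whether the probe lies inside the deleted sequence is not known here, so the remaining signal says nothing about residual protein. RNA of other organs differed between arrays. The summed level of 7 liver markers was 17.05 to 20.19 in ChREBPβ WT, 15.56 to 19.81 in ChREBPβ-KO, 12.56 to 17.53 in total ChREBP WT and 12.42 to 13.04 in total ChREBP-KO mice, with each of the 7 well above background on some array of every group. Of 6 kidney markers 3 were measured, and their sum was 15.09 to 16.36 in ChREBPβ WT replicates 1, 3 and 7 and 13.22 in ChREBPβ-KO replicate 2, against at most 11.42 on the other arrays. Slc12a1 and Slc12a3 were not well above background on any array of the total ChREBP line. Of 7 epididymis markers 2 were measured, with a sum of 15.71 in total ChREBP WT replicate 2 and at most 10.17 elsewhere. What these tissues add to the levels of the members was not tested, other than in the fits named beside a result.

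Loss of both isoforms went with a fall of Elovl6, the elongase that turns palmitate into stearate. Elovl1 and Scd2 rose, by 0.24 and 0.48 on the log2 scale, and the other 7 members did not pass the test, with differences of -1.71 (Elovl3) to 0.38 (Elovl7). In limma with the wash batch of the arrays as a term and Benjamini-Hochberg adjustment over all probes, 3 of 10 members were called in total ChREBP-KO against WT mice at an adjusted p under 0.05. The background was 9.25% of all 26394 genes, 5.61% called higher and 3.63% lower. Their median difference was -0.03 against 0.02 for all genes. KO and WT did not overlap for 2 members, Elovl6 and Scd2, against 7.49% of all genes. Loss of the β isoform alone gave 0 called members of 10, in a comparison where limma called 0% of all genes. Without adjustment, 2 members (Elovl1 and Fads1) had a p under 0.05, against 9.45% of genes. No member's ChREBPβ-KO and WT arrays were apart, against 0.0758% of genes, and the median difference was -0.12 against 0.02 for all genes. In adipose tissue as a whole, fewer cells of a type and less RNA per cell cannot be told apart.

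**Figure D1:**
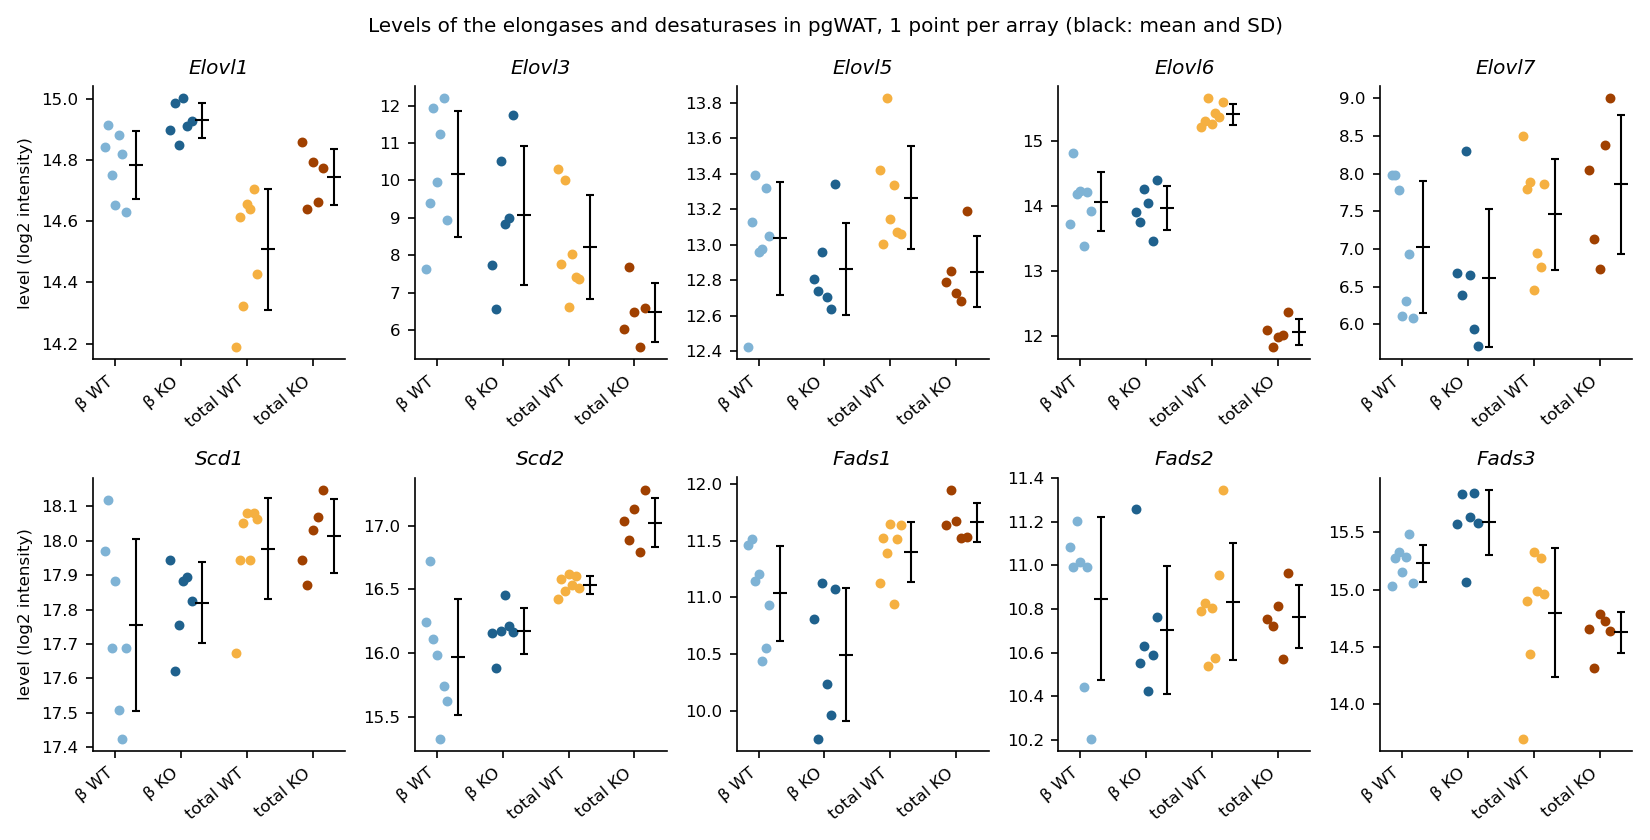
Levels of the 10 members by group, as log2 intensity of the brightest probe, with 1 point per array and the mean and SD in black. Elovl6 separates the total ChREBP-KO arrays (11.83 to 12.37) from all others, while the groups of most other genes overlap.

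The Elovl6 level was 15.22 to 15.66 in total ChREBP WT mice (median 15.38, mean 15.41 ± 0.17, SD, n = 7). In the 5 total ChREBP-KO mice it was 12.10, 11.83, 11.99, 12.02 and 12.37 (mean 12.06 ± 0.20). Every KO array lay below every array of the other groups. The difference of -3.37 (SE 0.19, 95% interval -3.76 to -2.98) was a 10.3-fold lower level, with an adjusted p of 8.9e-11 in limma. Within the 4 wash batches, each with 1 or 2 arrays of a group, it was -3.53, -3.33, -3.04 and -3.32, so each batch gave a fall of about the same size. The raw intensities, before normalization, were 40492.5 to 67254 in WT and 3580 to 4707.5 in KO.

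In the ChREBPβ line the same probe read 13.39 to 14.82 in WT (median 14.19, mean 14.07 ± 0.45, n = 7) and 13.47 to 14.40 in KO (median 13.98, mean 13.98 ± 0.34, n = 6). The KO range lay inside the WT range. The difference was -0.09 (SE 0.18, interval -0.46 to 0.28, adjusted p 0.934 in limma). A fall of more than 0.46 is outside that interval, which is small beside the fall in the total KO. Within batches the values were -0.12, -1.07, 0.08 and 0.28, and without ChREBPβ WT replicate 2 the difference was 0.06. The difference between the effects of the 2 deletions on Elovl6 was itself tested and was -3.28 (SE 0.26, interval -3.81 to -2.75, adjusted p 5.46e-08 in limma). Elovl6 was the only 1 of the 10 members called in that comparison, where 3.47% of all genes were called, 1.35% more positive and 2.13% more negative in the total KO.

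The WT mice of the lines also differed. The Elovl6 level of total ChREBP WT mice was 2.53-fold that of ChREBPβ WT mice (log2 difference 1.34, SE 0.17, adjusted p 2.12e-05 in limma), with no overlap. Within the 4 batches the difference was 1.25, 0.50, 1.44 and 1.76. Ordered by level, total ChREBP WT stood above ChREBPβ WT, ChREBPβ WT and ChREBPβ-KO overlapped, and total ChREBP-KO stood below all. Both gaps were free of overlap. With the liver marker sum as a covariate, the Elovl6 difference was -3.26 for total ChREBP-KO and 1.60 between the WT groups (adjusted p 0.0031), and it remained called. The liver sums of the WT groups hardly overlapped, so that fit cannot cleanly set them apart from the line.

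**Figure D2:**
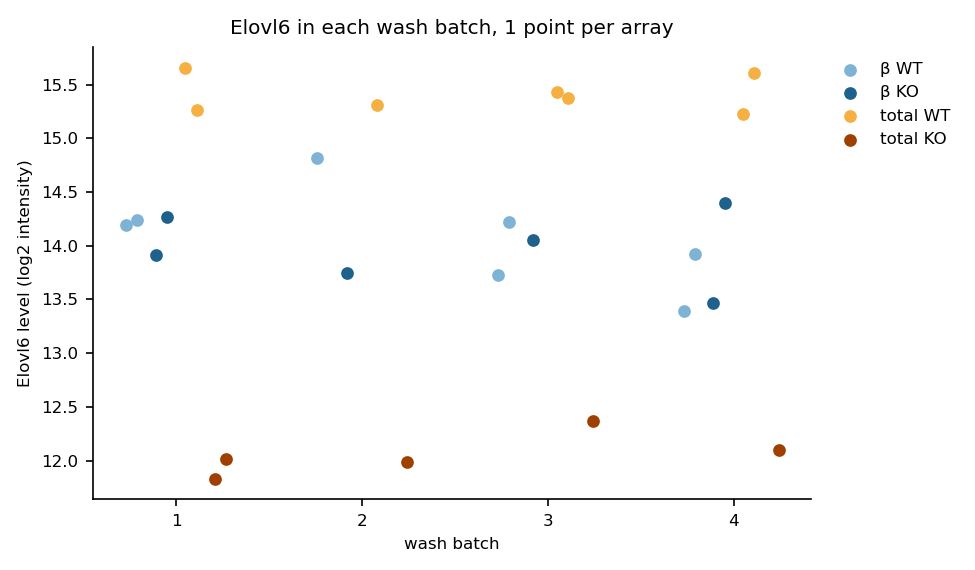
Elovl6 level (log2 intensity) in each wash batch, with 1 point per array coloured by group. The total ChREBP-KO arrays are the lowest in every batch, with falls of -3.04 to -3.53 from the WT arrays of the same line and batch.

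Elovl1, which extends saturated and monounsaturated chains to very long ones, was 14.86, 14.64, 14.79, 14.66 and 14.77 in the total ChREBP-KO mice and 14.19 to 14.71 (median 14.61) in their WT. The groups overlapped, and the highest WT array was exceeded on 3 of the 5 KO arrays. Elovl1 rose by 0.24 (SE 0.07, interval 0.10 to 0.39), a 1.18-fold higher level with an adjusted p of 0.0326 in limma. Within batches it was higher by 0.16, 0.18, 0.10 and 0.55. The adipocyte marker sum was higher in the same KO arrays, and its part in the rises of Elovl1 and Scd2 was not tested. The call is narrow: it was lost in 8 of the 12 fits that left out an array of these groups (adjusted p up to 0.156). A second, dimmer Elovl1 probe gave 0.14 (adjusted p 0.501). The lowest WT array, 14.19, was replicate 2, the one with the high epididymis marker sum, and without it the difference was 0.20 (adjusted p 0.0504). In the ChREBPβ line, levels were 14.63 to 14.91 in WT and 14.85 to 15.00 in KO, with a difference of 0.16 (interval 0.02 to 0.30, adjusted p 0.491). Between the effects of the deletions the difference was 0.08 (interval -0.12 to 0.29), and in total ChREBP WT against ChREBPβ WT Elovl1 was lower by -0.28 (SE 0.06, adjusted p 0.00365).

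Elovl5 elongates polyunsaturated chains. It was 12.79, 12.85, 12.73, 12.68 and 13.19 in total ChREBP-KO and 13.00 to 13.82 (median 13.15) in WT mice. Of the 5 KO arrays, 4 lay below the lowest WT array and replicate 7 lay among the WT arrays. The difference of -0.42 (SE 0.16, interval -0.76 to -0.08) did not pass adjustment (p 0.0171, adjusted p 0.125, limma). All 3 Elovl5 probes were lower, by -0.42 to -0.11. The dimmer ones had raw intensities of only 45 to 148 and 24 to 53, against local backgrounds of 14 to 24 and 14 to 28. With array quality weights the brightest passed, at -0.44 (adjusted p 0.049). In the ChREBPβ line the levels were 12.42 to 13.40 in WT and 12.64 to 13.34 in KO, a difference of -0.18 (interval -0.50 to 0.14). The dimmer probes gave -0.21 and 0.03 there. The E-box in the Elovl5 promoter is printed above, and the Elovl5 level was not called in either deletion.

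Elovl7, an elongase of saturated and polyunsaturated acyl-CoAs, was dim and variable. It ranged from 6.09 to 7.99 in ChREBPβ WT, 5.71 to 8.30 in ChREBPβ-KO, 6.46 to 8.497 in total ChREBP WT and 6.74 to 8.998 in total ChREBP-KO mice. The KO differences were -0.39 (interval -1.38 to 0.61) and 0.38 (interval -0.67 to 1.43). The first interval includes a fall and the second a rise of 1 log2 unit, so changes of that size in those directions are not excluded.

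Elovl3, which makes very long saturated and monounsaturated chains and is known from brown adipose tissue, skin and male liver, varied widely within groups. Its level was 7.62 to 12.19 in ChREBPβ WT (median 9.96, SD 1.68), 6.56 to 11.75 in ChREBPβ-KO (median 8.92, SD 1.87) and 6.62 to 10.32 in total ChREBP WT mice (median 7.76, SD 1.40). In total ChREBP-KO mice it was 6.04, 7.69, 6.496, 5.55 and 6.59 (SD 0.80). The KO differences of -1.16 (SE 0.81, interval -2.85 to 0.52) and -1.71 (SE 0.85, interval -3.48 to 0.07) had adjusted p values of 0.720 and 0.270 in limma. Between the WT groups the difference was -1.96 (SE 0.77, adjusted p 0.0741).

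The Elovl3 level followed the liver marker sum within groups. Over the 6 ChREBPβ-KO arrays Pearson's r was 0.9746 (exact permutation p 0.00139, adjusted 0.0208) and Spearman's rho 1.00 (exact p 0.00278, adjusted 0.0833). Over the 7 ChREBPβ WT arrays r was 0.912 (exact p 0.000992, adjusted 0.0208) and rho 0.929 (exact p 0.00675, adjusted 0.101). Over the 7 total ChREBP WT arrays r was 0.659 (exact p 0.110, adjusted 0.35) and rho 0.75 (exact p 0.0663, adjusted 0.331). Without the 2 arrays farthest from the median liver sum, r was 0.981, 0.811 and 0.248, so in total ChREBP WT mice the relation rests on those arrays. Of the 30 relations computed for the members in these 3 groups, Scd1 in total ChREBP WT mice also passed, in the opposite direction (r -0.915, exact p 0.00476, adjusted 0.0476). Its rho was -0.782 (exact p 0.0476, adjusted 0.288), and r was -0.881 without the 2 farthest arrays. With the liver marker sum as a covariate, the Elovl3 differences moved to -0.23 in the ChREBPβ line and -0.04 in the total ChREBP line. Between the WT groups the difference turned to 1.95 (adjusted p 0.140). The liver sums of these groups hardly overlapped, at 17.05 to 20.19 in ChREBPβ WT and 12.56 to 17.53 in total ChREBP WT mice. Such a fit cannot cleanly set the liver sum apart from the line. The summed level of 6 brown or beige adipocyte markers did not overlap between the WT groups, at 12.62 to 13.16 in ChREBPβ WT, 12.66 to 13.50 in ChREBPβ-KO, 13.49 to 14.998 in total ChREBP WT and 13.76 to 15.49 in total ChREBP-KO mice. In total ChREBP WT mice, replicates 2 and 4 had the highest Elovl3 levels (10.32 in replicate 2). They also had the highest brown or beige sums of that group (14.998 and 14.70), and liver sums of 17.53 and 14.04. In ChREBPβ-KO mice it was otherwise: replicate 3 had the highest brown or beige sum of its group (13.50) and the lowest Elovl3 level (6.56). Total ChREBP-KO replicate 7 had the highest brown or beige sum of all arrays (15.49) and an Elovl3 level of 6.59. The part of these markers in the Elovl3 level was not tested. The 7 liver markers were all called lower in the total ChREBP WT than in the ChREBPβ WT group (median difference -4.76). There 8.51% of all genes were called lower. In total ChREBP-KO mice 1 of 7 was called lower, against 3.63% of all genes, and in ChREBPβ-KO mice 0 of 7, against 0%.

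**Figure D3:**
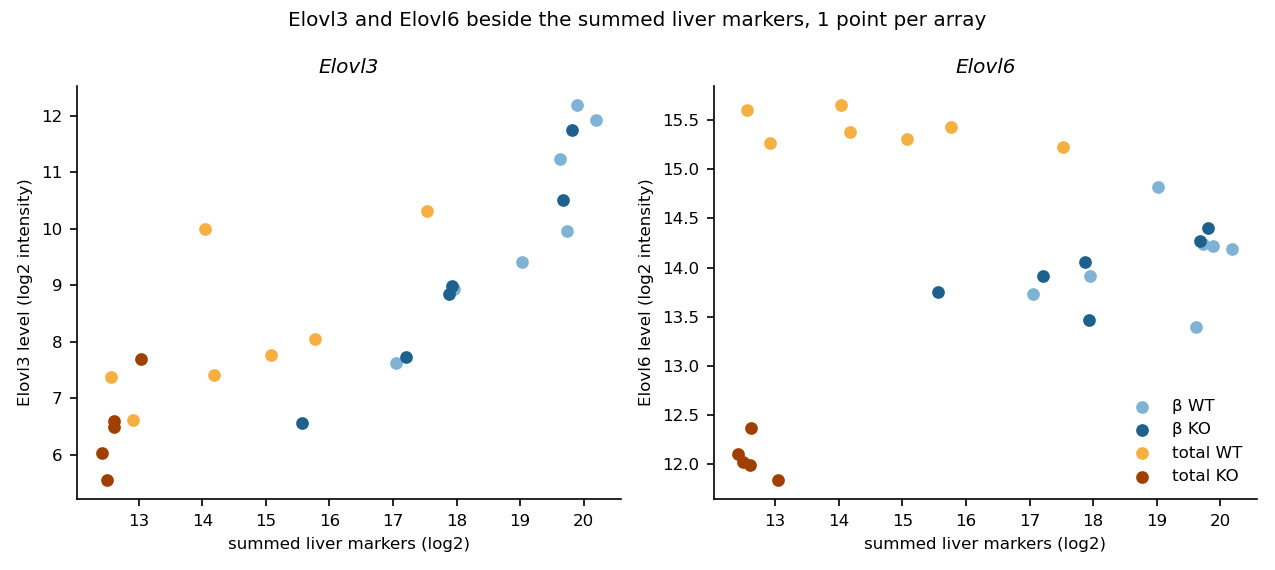
Elovl3 and Elovl6 levels (log2 intensity) against the log2 summed level of 7 liver markers, with 1 point per array coloured by group. Elovl3 climbs with the marker sum in the ChREBPβ groups, with r of 0.9746 and 0.912, while Elovl6 separates the total ChREBP-KO arrays, whose marker sums are 12.42 to 13.04.

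Scd1 introduces the unsaturated bond that yields oleate and palmitoleate and is the main stearoyl-CoA desaturase of mouse fat and liver. Its level was 17.43 to 18.12 in ChREBPβ WT, 17.62 to 17.94 in ChREBPβ-KO and 17.68 to 18.08 in total ChREBP WT mice. In total ChREBP-KO mice it was 17.94, 17.87, 18.03, 18.07 and 18.15. The 4 groups overlapped. The difference was 0.03 (SE 0.10, interval -0.19 to 0.24) in total ChREBP-KO and 0.07 (interval -0.13 to 0.27) in ChREBPβ-KO mice. A change of the normalized value beyond 0.27 in either direction lies outside both intervals. A larger change in Scd1 RNA is not excluded, because differences of the brightest probes are compressed. The probe ranked 29 to 95 of 40561 on every array, where quantile normalization leaves few steps. None of its spots was saturated, and the raw intensities were 228652 to 322975 in total ChREBP WT and 245892 to 297216 in KO mice. A further probe named Scd1 lies on the opposite strand and is uncertain, and it gave -0.14 and -0.08.

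Scd2, the stearoyl-CoA desaturase with broad expression in brain, developing skin and adipose tissue, was higher without ChREBP. Its level was 17.03, 16.88, 17.13, 16.79 and 17.28 in total ChREBP-KO mice (mean 17.02 ± 0.19) and 16.43 to 16.62 (median 16.53, mean 16.54 ± 0.07, n = 7) in WT mice. After normalization, all 5 KO arrays lay above all 7 WT arrays. The raw intensities, before normalization, overlapped, at 80059.5 to 127674 in WT and 123156 to 142129 in KO mice. Scd2 rose by 0.48 (SE 0.15, interval 0.17 to 0.79), a 1.39-fold higher level with an adjusted p of 0.0496 in limma. Within batches it was higher by 0.28, 0.55, 0.71 and 0.57. This is at the edge of the threshold: leaving out any 1 of the 12 arrays ended the call (adjusted p 0.0505 to 0.163), while the difference stayed at 0.42 to 0.53. In the ChREBPβ line it was 15.33 to 16.72 (median 15.99) in WT and 15.89 to 16.46 (median 16.17) in KO mice, a difference of 0.23 (interval -0.07 to 0.52, adjusted p 0.674). The 2 effects differed by 0.25 (interval -0.18 to 0.68), which was not called. The Scd2 level of total ChREBP WT mice was also 1.48-fold that of ChREBPβ WT mice (0.57, SE 0.14, adjusted p 0.00456), with overlap.

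Fads1, which performs the last desaturation before arachidonic acid, was the member with the smallest p in ChREBPβ-KO mice. It was 10.44 to 11.52 (median 11.15) in ChREBPβ WT and 9.75 to 11.13 (median 10.52) in ChREBPβ-KO mice, and 3 of the 6 KO arrays lay below the lowest WT array. The difference of -0.56 (SE 0.21, interval -0.9995 to -0.12) did not pass adjustment (p 0.0143, adjusted p 0.427, limma). It was lower in all 4 batches, by -0.21, -1.76, -0.77 and -0.17, and all 3 Fads1 probes were lower, by -0.56 to -0.26. In the total ChREBP line Fads1 was 10.94 to 11.65 (median 11.52) in WT and 11.64, 11.95, 11.67, 11.52 and 11.53 in KO mice, with a difference of 0.22 (interval -0.24 to 0.68). The 2 effects differed by 0.78 (SE 0.30, interval 0.15 to 1.42, p 0.018, adjusted p 0.226), which was not called.

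Fads2, which performs the first desaturation of linoleic and linolenic acid, was 10.21 to 11.20 in ChREBPβ WT, 10.42 to 11.26 in ChREBPβ-KO, 10.54 to 11.35 in total ChREBP WT and 10.57 to 10.96 in total ChREBP-KO mice. Its differences were -0.14 (interval -0.48 to 0.20) and -0.08 (interval -0.44 to 0.28). The 5 probes of Fads2 did not read alike. In ChREBPβ-KO mice all 5 were lower, and the 4 dimmer ones gave -0.68 to -0.37. In total ChREBP-KO mice the dimmer ones gave 0.05 to 0.21. None was called. A dimmer probe spread from 7.12 to 9.92 within the ChREBPβ-KO group, where the brightest spread from 10.42 to 11.26.

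Fads3, a relative of Fads1 and Fads2 in the same gene cluster that acts on other substrates, was 15.03 to 15.49 in ChREBPβ WT (median 15.28) and 15.07 to 15.84 in ChREBPβ-KO mice (median 15.61), and the highest WT array was exceeded on 5 of the 6 KO arrays. The difference was 0.38 (SE 0.19, interval -0.02 to 0.77, adjusted p 0.574) and was positive in all 4 batches (0.08, 0.56, 0.38 and 0.54). The second Fads3 probe gave 0.43. In the total ChREBP line it was 13.70 to 15.33 (median 14.97) in WT and 14.66, 14.32, 14.79, 14.72 and 14.64 in KO mice, a difference of -0.17 (interval -0.59 to 0.24). The 2 effects differed by -0.55 (interval -1.12 to 0.02, adjusted p 0.421). The lowest WT array, 13.70, was again replicate 2, with an epididymis marker sum of 15.71. Without it the effects differed by -0.71 (adjusted p 0.0421) and Fads3 was called, so this call depends on that array.

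**Figure D4:**
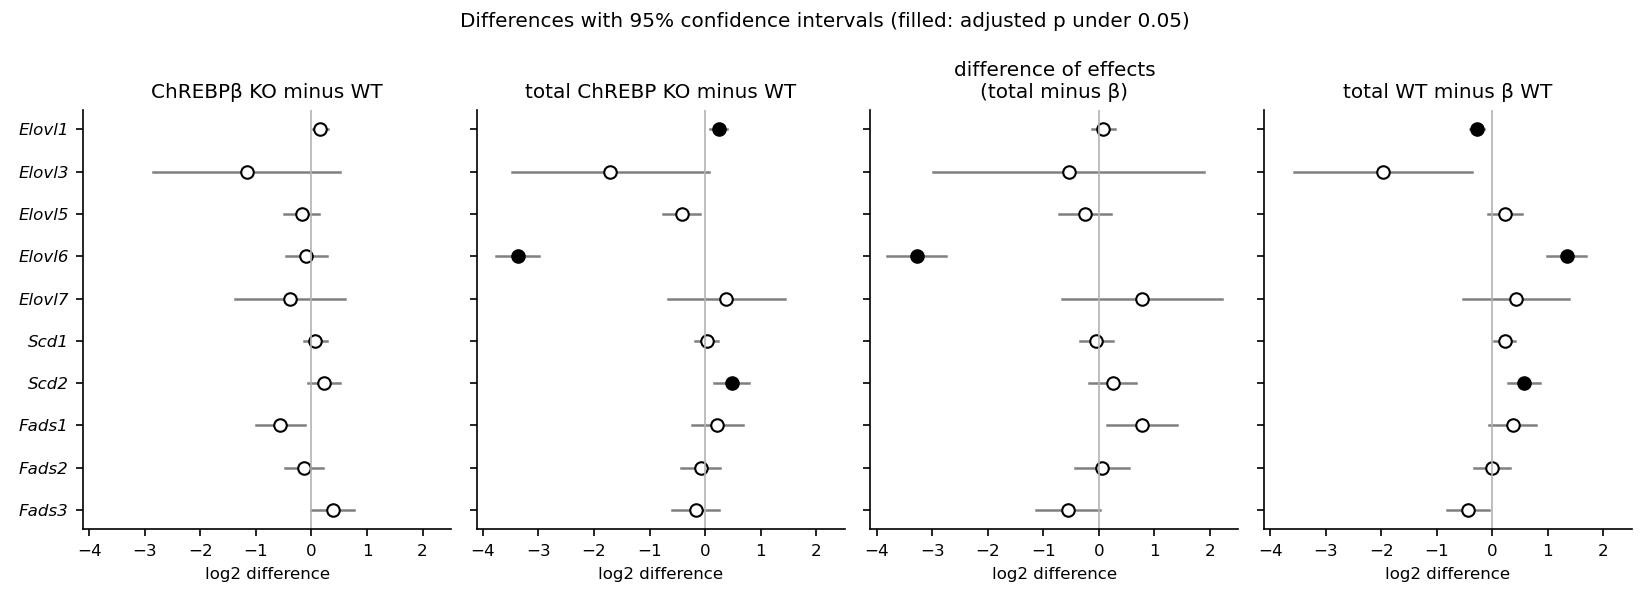
Log2 differences of the 10 members in the 4 comparisons, as points with 95% intervals from limma, filled where the adjusted p was under 0.05. Elovl6 lies at -3.37 for total ChREBP-KO, -0.09 for ChREBPβ-KO, -3.28 for the difference of effects and 1.34 between the WT groups.

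The WT groups give the scale of the difference between lines. In total ChREBP WT against ChREBPβ WT mice, 3 members were called (Elovl6 and Scd2 higher, Elovl1 lower) where 22% of all genes were called, 13.5% higher and 8.51% lower, and only Elovl6 did not overlap, against 5.38% of genes. The median over the members was 0.23 against 0.04 for all genes. These WT arrays are also the controls of the KO comparisons, so the comparisons are not independent. Leaving out the 5 arrays with high kidney or epididymis markers gave 1 called member here, Elovl6. Calls over all 26394 genes fell as well, from 5815 to 2634. Over the 10 members, 3 of 30 neighbouring pairs in the order of group levels did not overlap: the 2 gaps of Elovl6, and Scd2 in total ChREBP-KO above total ChREBP WT mice.

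The genes around the members in the pathway were followed with a list of 44, of which 43 were measured. In total ChREBP-KO mice 10 were called higher and 7 lower, where 5.61% and 3.63% of all genes were, with a median of -0.04 against 0.02 for all genes. The genes listed as palmitate supply, the mitochondrial carboxylase Acacb among them, fell in 4 of 4 cases. Acaca, the acetyl-CoA carboxylase of the cytosol, fell by 1.86 (adjusted p 2.75e-11), Acly, the ATP citrate lyase that supplies acetyl-CoA, by 1.66 (adjusted p 3.58e-10), and Acacb, the mitochondrial carboxylase, by 1.26 (adjusted p 4.84e-06). Fasn, the fatty acid synthase, fell by 0.32 (adjusted p 4.41e-05 in limma), but its probe ranked 2 to 12 on every array. It held rank 2 on all 7 total ChREBP WT arrays, with the same value of 18.79, which compresses the Fasn difference. Its raw intensities were 412832 to 530381 in WT and 332326 to 384511 in KO mice. Mlxipl fell by 1.77 (adjusted p 1.11e-08). Srebf1, which encodes the lipogenic factor SREBP-1c, fell by 0.67 (adjusted p 0.000129). The later steps of the elongation cycle, which follow the elongase (Hsd17b12, the Hacd genes and Tecr), had 0 of 6 called, and 0 had an unadjusted p under 0.05, against 21% of all genes. The cytochrome b5 system that passes electrons to the desaturases had 3 of 6 called higher. Among the other elongases and desaturases 2 of 7 were called higher. Elovl4, which makes the longest chains, was 5.08 to 5.58 in WT and 5.85 to 7.49 in KO mice, a rise of 1.11 (adjusted p 0.000353). It was dim, and it is named here after its values were seen.

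In ChREBPβ-KO mice 0 of the 43 were called, as 0% of all genes were, and 14 had an unadjusted p under 0.05, against 9.45% of all genes. Acaca differed by -0.09, Acly by -0.09, Fasn by -0.04 and Srebf1 by -0.23 (adjusted p 0.503 to 0.843). Mlxipl differed by -0.74 (adjusted p 0.116). The effects of the deletions differed for 7 of the 43 genes, against 3.47% of all genes: Acaca (-1.77), Acly (-1.56), Mlxipl (-1.03), Acacb (-0.94) and Fasn (-0.28) more negative in the total KO, and Elovl4 (1.022, adjusted p 0.0275) and Ppara (1.58, adjusted p 0.017), the fatty acid oxidation regulator, more positive. Srebf1 (-0.45, adjusted p 0.106) was not called there. Between the WT groups 14 were higher and 7 lower, where 13.5% and 8.51% of all genes were. Acaca (0.70), Mlx (1.03), Mlxipl (0.91) and Tecr (0.75) were higher in total ChREBP WT mice, and Elovl2, an elongase of polyunsaturated chains that is abundant in liver, was lower by -4.67 (adjusted p 0.000154), beside the lower liver markers. Fasn differed by 0.02 there, with its probe at ranks 2 to 3 in ChREBPβ WT and at rank 2 in total ChREBP WT mice.

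**Figure D5:**
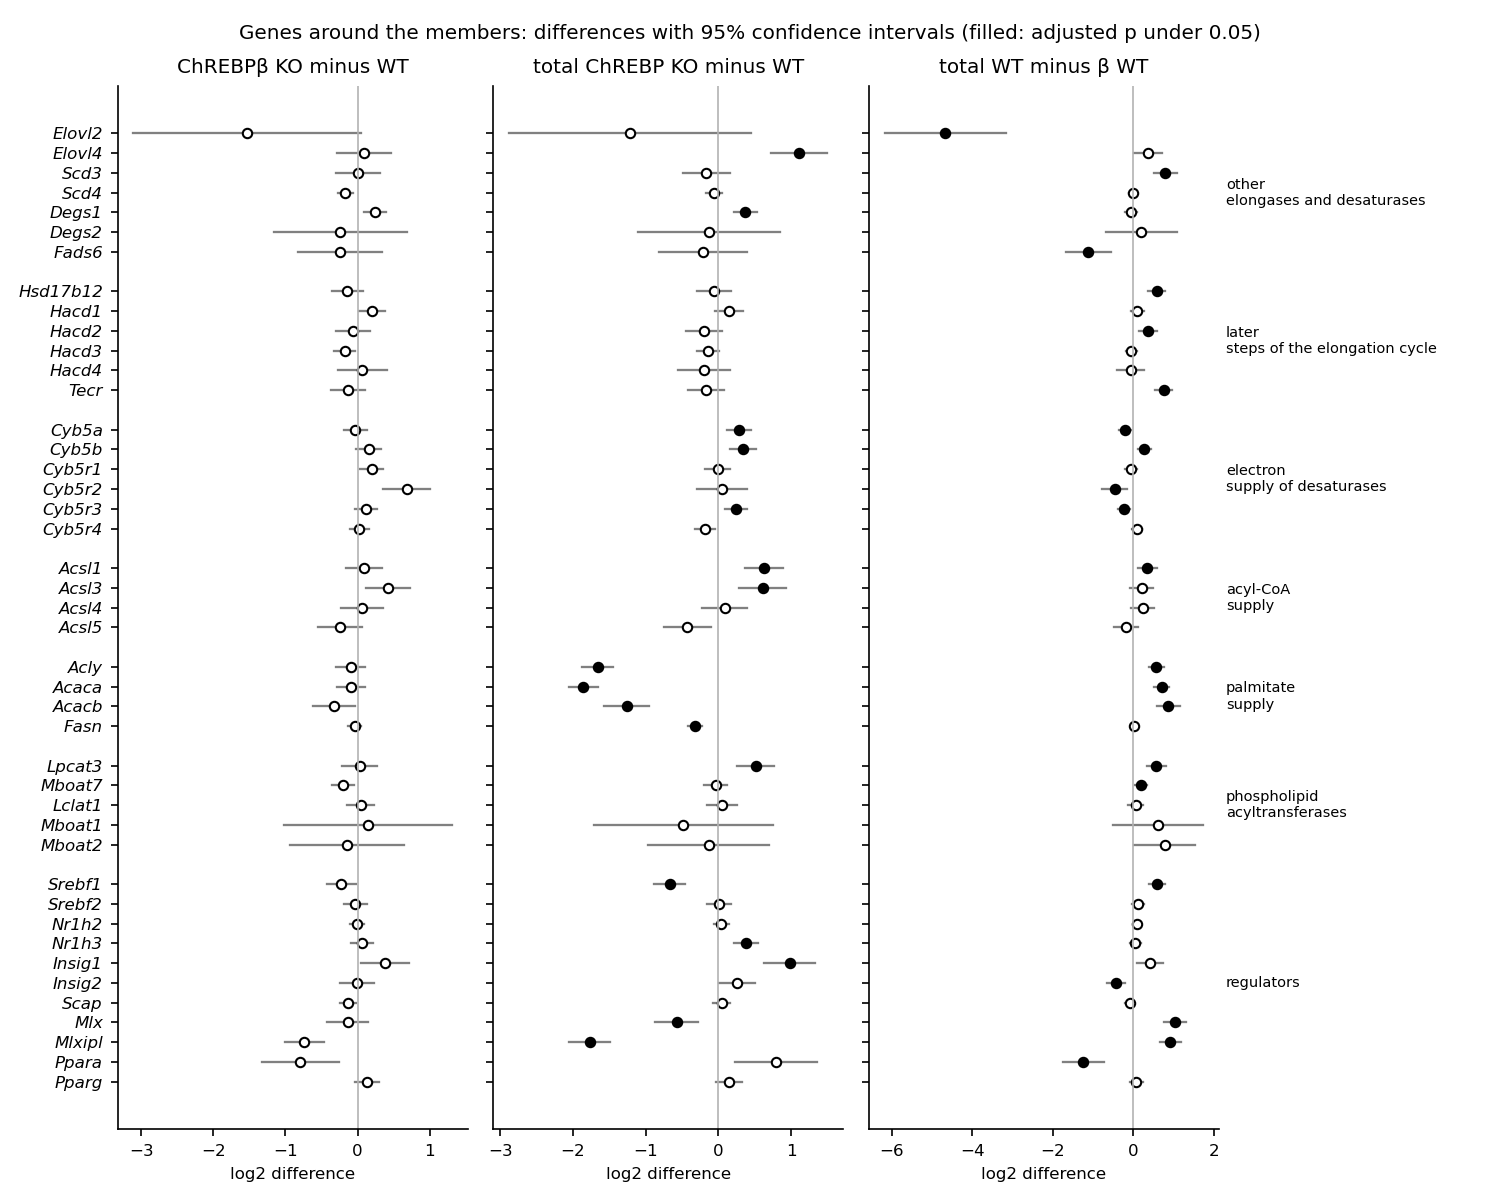
Log2 differences of the 43 measured genes of the pathway list, grouped by role, in ChREBPβ-KO against WT, total ChREBP-KO against WT and total ChREBP WT against ChREBPβ WT mice, with 95% intervals from limma and filled points for an adjusted p under 0.05. The 4 genes listed as palmitate supply lie at -1.86 to -0.32 in total ChREBP-KO mice and at -0.33 to -0.04 in ChREBPβ-KO mice.

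The genes whose profile over the 25 arrays was nearest to that of 6 members were found by the root mean square difference between centred log2 levels, over 18873 named genes. Nearest to Elovl6, whose own spread was 1.18, were Oscp1 (0.33), Sbk1 (0.36) and Gpd2 (0.39), whose differences in total ChREBP-KO mice were -3.33, -2.64 and -2.79. Nearest to Scd2 (own spread 0.46) were Lpcat3 (0.17), Fam241a (0.18) and 4930404N11Rik (0.20). Nearest to Elovl5 (0.30) were Stard5, Mavs and Fam210b, each at 0.20. Scd1 (0.19) had Capn7 (0.10), Atp6v1a (0.11) and Pfkm (0.11), Fads1 (0.56) had Dct (0.27), Prlr (0.30) and Haus7 (0.30), and Fads2 (0.27) had Zfp385b (0.17), Sppl2c (0.20) and Msx2 (0.20). For Elovl5, Scd1, Fads1 and Fads2 these distances are large beside the own spread, so the likeness is loose.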

How the data were processed

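Total RNA from pgWAT of 25 mice was labelled with Cy3 and hybridized to Agilent mouse arrays, and per the labels the images were read with Feature Extraction 10.10.1.1. The deposited scanner files hold median, mean, background and processed intensity per spot. From them the authors kept spots detected on enough arrays, quantile-normalized the log2 values and took the median over replicated probes. This deposited log2 table (40561 probes, 23 empty cells) was used here, and its columns followed the raw log2 intensity of their array (lowest r 0.9998). Quantile normalization gives all arrays the same set of values, so differences of the brightest probes are compressed.

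The 4 groups of the labels were fitted in limma 3.58.1 (R 4.3.3) with wash batch as a fixed term. There were 18 residual and 2.51 prior degrees of freedom. P-values were adjusted by Benjamini-Hochberg over all probes, and a gene was called at an adjusted p under 0.05. The fit was tested on simulated data. Probes were named through RefSeq accessions (32989), current symbols (10228) or older ones (519), and 12869 kept the array's name. The labels number the replicates but state no pairing, and none was used in the main fit. Deviations of same-numbered arrays from their group means correlated at -0.432 to 0.386. These values cannot exclude a pairing, because the arrays also differ in RNA of other organs. P-values weigh a difference between groups against the moderated spread between mice within groups, estimated over all 4 groups. The number of arrays limits precision.

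All 10 members are named. Of the pathway list, Mlxipl, Fasn, Acaca, Acly, Srebf1 and up to 6 genes with the smallest adjusted p in each comparison are named, and for 6 members the 3 genes most alike. The members and lists were chosen with earlier results of these data known. The alternatives were other sources of the values, background correction, dim-probe filter, terms, weights, prior, probe choice and each array left out. A liver marker covariate and leaving out 5 arrays with a log2 kidney or epididymis marker sum above 12 were chosen after seeing the data.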

Additional observations from a re-analysis of the deposited data

Results flagged for a closer look

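The difference between the effects of the 2 deletions on Elovl6 was -3.28 in limma (adjusted p 5.46e-08), with -3.37 in total ChREBP-KO and -0.09 in ChREBPβ-KO mice.

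Of 40 combinations of a member and a group searched for an array far from the others, 2 held one, where chance alone marks about 1 in 20. Scd1 was lowest in total ChREBP WT replicate 2, at 17.68 (17.675), with the nearest array at 17.94. Fads3 was lowest in ChREBPβ-KO replicate 4, at 15.07 (15.068), with the nearest array at 15.57. Total ChREBP WT replicate 2 had the highest liver marker sum of its group, 17.53, and an epididymis marker sum of 15.71. ChREBPβ-KO replicate 4 had a liver marker sum of 19.68 and the highest epididymis marker sum of its group, 8.51. Replicate 8 of that group had a liver marker sum of 19.81 and a Fads3 level of 15.58. What these tissues add to the values was not tested.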

How the results depend on the processing

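Elovl6 remained called in total ChREBP-KO mice under all 15 other settings (-3.42 to -3.26) and in each of the 12 fits without an array of those groups, and so did its difference between the effects (-3.35 to -3.22). The number of members called in total ChREBP-KO was 1 in place of 3 with the processed signal, with no wash batch term, with the replicate block, with the replicate block and wash batch, with scan day, with the liver covariate and without the kidney or epididymis arrays. Over all 26394 genes, total ChREBP-KO calls under these settings were 1712 to 2506, against 2441 in the main fit. Between the WT groups the number of members was 5 with array quality weights and 1 without those arrays. All-gene calls there were 8017 and 2634, against 5815 in the main fit. Of the pathway list, the difference of effects gave 4 calls in place of 7 under both replicate blocks and without the kidney or epididymis arrays. All-gene calls were then 561, 522 and 774, in place of 917. ChREBPβ-KO gave 2 calls of the list with array quality weights, where 37 of all genes were called in place of 0. Between the WT groups the list gave 10 with the liver covariate and 12 without those arrays, in place of 21. All-gene calls were then 2098 and 2634, in place of 5815. Leaving out single arrays gave 1 to 2 members for total ChREBP-KO, 1 to 2 for the difference of effects and 3 to 5 between the WT groups, the upper ends of the last 2 without total ChREBP WT replicate 2. It gave 0 members and 0 to 2 pathway genes for ChREBPβ-KO, with 2 without ChREBPβ-KO replicate 4, where 66 of all genes were called. All-gene calls without single arrays were 1730 to 2430 for total ChREBP-KO. Without total ChREBP WT replicate 2 they were 1095 for the difference of effects and 5973 between the WT groups.

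The replicate block ended the calls of Elovl1 and Scd2 in total ChREBP-KO and called Fads3 between the WT groups (-0.49, adjusted p 0.0453; -0.43, adjusted p 0.0247 with wash batch). Whether the numbers pair the arrays is not known, as the labels do not state it. Scd2 in total ChREBP-KO was called in 6 of the 15 settings (0.34 to 0.53) and Elovl1 in 6 (0.19 to 0.27). Some signs turned, mostly of small values, and the largest turn was that of Elovl3 between the WT groups. Scd1 read 0.021 for the difference of effects with scanner values and 0.013 without the kidney or epididymis arrays. In ChREBPβ-KO and total ChREBP-KO it read -0.0054 and -0.056 with the mean over probes and -0.020 and -0.0063 without those arrays, and in total ChREBP-KO -0.062 with the liver covariate. Fads2 between the WT groups read 0.019 (processed signal), 0.040 and 0.074 (replicate blocks), 0.077 (mean over probes) and 0.20 (those arrays left out). Its difference of effects read -0.14, -0.21 and -0.019 under the blocks and without those arrays, and total ChREBP-KO 0.084 with the mean over probes. Elovl7 in total ChREBP-KO read -0.087 with the replicate block, in place of 0.38. With the liver covariate, Elovl3 read 0.19 for the difference of effects, in place of -0.54, and 1.95 between the WT groups, in place of -1.96. Without single arrays, Fads2 was -0.13 to 0.052 between the WT groups, -0.021 to 0.18 for the difference of effects and -0.15 to 0.024 in total ChREBP-KO. Scd1 was -0.013 to 0.068 in total ChREBP-KO and -0.11 to 0.022 for the difference of effects, and Elovl6 in ChREBPβ-KO was -0.21 to 0.063. In all, 551 of 600 member differences under other settings and 598 of 640 with an array left out kept direction and call. The main fit called only 0 to 3 of the 10 members in a comparison, so most of these stayed uncalled. These shares therefore say little about how firm the calls are. The cause of the changes was not tested.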
